A study of Caenorhabditis elegans with 18 samples.

Results

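The genes described here were close to silent in the wild-type strain N2 and carried reads in every library of the mutant met-2(ok2307). CPM is the count of a gene per 1000000 counts of its library. The genes were chosen by their CPM: a gene was kept when its mean was below 0.3 over the 6 N2 libraries and at least 2 over the 6 met-2 libraries. Of 20505 gene models, 13 met both levels. The 4 that belong to named families or single genes set aside by symbol (Y82E9BR.17, pals-33, fbxa-158 and clec-42) were left out, and 9 remained: trf-2, dsl-3, Y39G8B.7, F44F1.4, ZK355.8, W08E12.2, F40D4.13, C01G10.17 and B0507.8. The levels in N2 and met-2 chose these genes, so they are given below as a description without a test.

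The libraries were made from polyA RNA of whole Caenorhabditis elegans lysates collected at the L4 larval stage. The strains N2, met-2(ok2307) and lin-65(n3441) were each raised from hatching at 20C and fed bacteria carrying either cco-1 RNAi or the empty vector, which gave 6 groups with 3 libraries each. The RNAi target cco-1, now named cox-5B, encodes a subunit of cytochrome c oxidase, and the study asked how its loss changes expression in the 3 strains. Nothing in the labels says whether the replicates were separate cultures, so p-values measure the spread between these libraries, which may be technical. Totals ran from 5141303 to 19261705 counts per library.

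MET-2 is a histone methyltransferase related to mammalian SETDB1 and places methyl groups on lysine 9 of histone H3, a mark of silent chromatin. LIN-65 is a partner of MET-2 that helps it to accumulate in the nucleus. In worms this mark is found mainly on the chromosome arms, on repeats and on genes with little transcription.

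Against N2 the alleles could be followed in the counts. Over 6 libraries each, met-2 ran from 5.53 to 23 CPM in the met-2 strain and from 35.3 to 63.4 CPM in N2. The gene lin-65 ran from 5.62 to 13 CPM in the lin-65 strain and from 11.4 to 30.8 CPM in N2, and these ranges overlapped, but not within either diet. On cco-1 RNAi cox-5B was at 252 to 395 CPM over all strains, against 505 to 765 CPM on empty vector. One library, lin-65 replicate 1 on empty vector, carries N2 in its strain label but lin-65 in its title and source, and was used as lin-65. It and met-2 cco-1 RNAi replicate 1 stood apart from their mates in earlier results, so values without these 2 libraries are given where they matter.

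In N2 no gene of the set had more than 7 counts in a library, and 8 of the 54 values were 0. Across libraries, 3 counts equal 0.156 to 0.584 CPM, so the N2 ceiling lies at a few reads. In met-2 the counts ran from 8 to 116 per gene and library. The genes were still weakly expressed there: the met-2 mean of a tested gene had a median of 12.2 CPM, while the set ran from 2.60 CPM for B0507.8 to 5.62 CPM for trf-2. The ratio of the met-2 mean to the N2 mean ran from 9.76 for B0507.8 to 42.8 for trf-2. Whole animals were sequenced, and more cells with a transcript cannot be told apart from more transcript per cell.

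**Figure D1:**
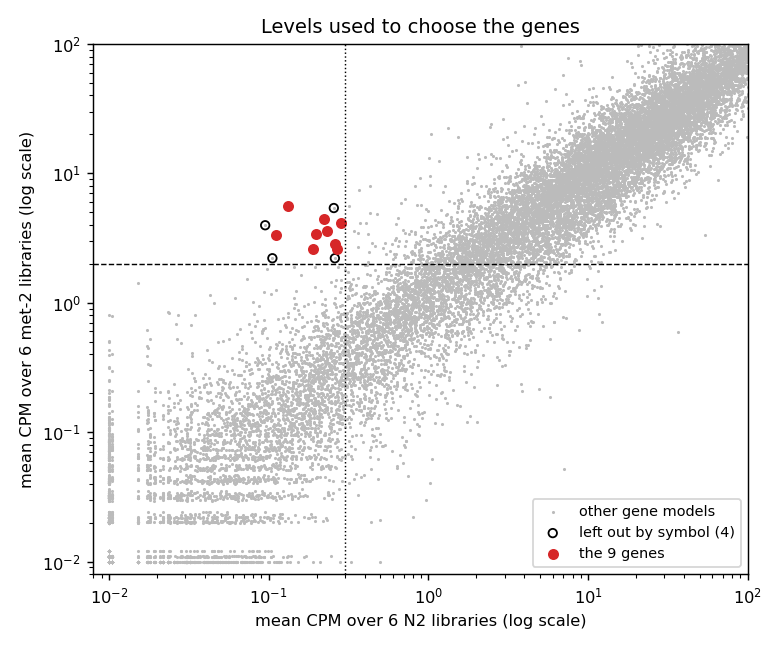
Mean CPM over the 6 N2 libraries (x axis, log scale) against mean CPM over the 6 met-2 libraries (y axis, log scale) for the gene models up to 100 CPM, with values under 0.01 drawn at 0.01. The dotted line is the N2 ceiling of 0.3 and the dashed line the met-2 floor of 2; the 9 genes are the red points, and the open circles are the 4 genes left out by symbol.

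Near the N2 ceiling, F44F1.4 at 0.282, B0507.8 at 0.266 and F40D4.13 at 0.259 CPM lay inside. Just outside it were fipr-24 at 0.318, C17B7.5 at 0.341 and nhx-6 at 0.365 CPM in N2. At the met-2 floor, B0507.8 at 2.60, C01G10.17 at 2.61 and F40D4.13 at 2.85 CPM lay inside, and ZK177.9 at 1.91, K01A6.8 at 1.89 and cnc-7 at 1.88 CPM lay outside. Of the genes left out by symbol, clec-42 had a met-2 mean of 5.40 CPM and Y82E9BR.17 had 3.97 CPM.

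The choice set a ceiling in N2 and a floor in met-2 and left the lin-65 levels free. The 9 genes differed most in lin-65, and this follows in part from the choice. They are given below from those with similar levels in both mutants to those with reads mainly in met-2, each with its libraries in the order replicate 1, 2 and 3. Overlap between diets, or between strains on 1 diet, compares 3 libraries with 3. The share of all genes without such overlap is not given, so nothing is read from it.

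F44F1.4 (chromosome I, 13263803 to 13265570, minus strand in WBcel235) encodes a protein of 548 residues. In N2 its lowest, median and highest values over 6 libraries were 0, 0.212 and 0.659 CPM. The lin-65 libraries had 4.11, 2.72 and 2.80 CPM on empty vector and 6.03, 4.87 and 6.29 CPM on cco-1 RNAi. The met-2 libraries had 3.14, 2.74 and 2.19 CPM on empty vector and 2.67, 4.89 and 9.06 CPM on cco-1 RNAi. Every library of both mutants was above every N2 library, and the lin-65 and met-2 libraries overlapped. Within lin-65 the diets did not overlap.

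ZK355.8 (chromosome II, 2927804 to 2928141, plus strand) encodes a protein of 60 residues. N2 ran from 0.104 to 0.424 CPM with a median of 0.157. In lin-65 it was at 11.57, 2.54 and 2.73 CPM on empty vector and at 4.86, 3.34 and 4.38 CPM on cco-1 RNAi. In met-2 the values were 2.66, 0.934 and 5.46 CPM on empty vector and 6.77, 3.26 and 1.33 CPM on cco-1 RNAi. Both mutants were above N2 in all libraries, and met-2 spread 7.24-fold between its lowest and highest library. The lin-65 mean of 4.90 CPM was 3.57 CPM without empty vector replicate 1.

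F40D4.13 (chromosome V, 17155874 to 17157254, minus strand; model F40D4.13a) encodes a protein of 339 residues. It is the one gene of the set that overlaps another annotated gene, the piRNA 21ur-12557 on the opposite strand. N2 had 0.988, 0.125 and 0.311 CPM on empty vector and 0, 0.132 and 0 CPM on cco-1 RNAi. The lin-65 libraries had 2.01, 1.61 and 1.32 CPM on empty vector and 4.67, 4.70 and 3.69 CPM on cco-1 RNAi. In met-2 it was at 2.01, 3.00 and 1.75 CPM on empty vector and at 4.23, 3.19 and 2.90 CPM on cco-1 RNAi. The mutants did not overlap N2, and within lin-65 the diets did not overlap.

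B0507.8 (chromosome V, 8760622 to 8762961, minus strand) encodes a protein of 395 residues. Its N2 values ran from 0.0907 to 0.565 CPM with a median of 0.257. The lin-65 values were 2.85, 2.54 and 1.64 CPM on empty vector and 2.53, 2.74 and 2.29 CPM on cco-1 RNAi. Those of met-2 were 1.77, 2.34 and 1.53 CPM on empty vector and 4.43, 2.87 and 2.66 CPM on cco-1 RNAi. The mutants were above N2 throughout and overlapped each other. For F44F1.4, ZK355.8, F40D4.13 and B0507.8 the lin-65 mean was 109%, 144%, 105% and 93.5% of the met-2 mean.

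Y39G8B.7 (chromosome II, 13994410 to 13995034, minus strand) encodes a protein of 178 residues and stood between the strains in lin-65. N2 ran from 0.0907 to 0.527 CPM with a median of 0.174. In lin-65 the values were 2.26, 1.18 and 3.04 CPM on empty vector and 0.973, 1.28 and 1.27 CPM on cco-1 RNAi. The met-2 libraries had 6.51, 4.74 and 3.35 CPM and 5.66, 2.22 and 3.99 CPM on these diets. All lin-65 libraries were above N2, and on each diet all met-2 libraries were above all lin-65 libraries.

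The gene dsl-3 (chromosome IV, 1610273 to 1612924, plus strand) belongs to the Delta/Serrate/LAG-2 family, named for ligands of Notch receptors. It ran from 0.0907 to 0.437 CPM in N2, with a median of 0.240. The lin-65 libraries had 1.84, 0.743 and 0.467 CPM on empty vector and 1.75, 1.11 and 0.826 CPM on cco-1 RNAi. In met-2 it was at 2.90, 3.27 and 2.26 CPM on empty vector and at 7.55, 3.19 and 2.42 CPM on cco-1 RNAi. The 3 strains did not overlap in CPM, with N2 lowest and met-2 highest. In counts lin-65 and N2 did overlap, with 6 in the lowest lin-65 library and 7 in the highest N2 library.

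W08E12.2 (chromosome IV, 3305875 to 3306639, plus strand) encodes a small protein. N2 had 0.141, 0 and 0 CPM on empty vector and 0.181, 0.132 and 0.217 CPM on cco-1 RNAi. In lin-65 the levels were 1.17, 0.557 and 0.935 CPM and then 0.778, 1.37 and 0.953 CPM. Those in met-2 were 4.14, 2.20 and 2.77 CPM and then 6.31, 1.96 and 2.78 CPM. Here too the 3 strains were in the order N2, lin-65, met-2 without overlap in CPM. The lowest lin-65 count and the highest N2 count were both 4. The lin-65 mean was 37.8% of the met-2 mean for Y39G8B.7, 31.2% for dsl-3 and 28.6% for W08E12.2.

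The gene trf-2 (chromosome I, 5154514 to 5158500, plus strand; sequence name Y110A7A.2) is named for similarity to TNF receptor-associated factors. It had the highest met-2 mean of the set in CPM, and N2 ran from 0 to 0.272 CPM with a median of 0.133. In lin-65 it was at 0, 0.186 and 0.312 CPM on empty vector and at 0.973, 0.171 and 0.254 CPM on cco-1 RNAi. The met-2 values were 5.98, 5.54 and 7.14 CPM and then 7.16, 4.89 and 3.02 CPM. All met-2 libraries were above all lin-65 libraries, and lin-65 overlapped N2.

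C01G10.17 (chromosome V, 15090757 to 15091114, plus strand) encodes a protein of 74 residues. N2 ran from 0 to 0.395 CPM with a median of 0.148. The lin-65 values were 0.335, 0.433 and 0 CPM on empty vector and 0.389, 0.257 and 0.318 CPM on cco-1 RNAi. The met-2 values were 2.43, 0.534 and 1.09 CPM on empty vector and 6.64, 1.24 and 3.75 CPM on cco-1 RNAi. N2 and lin-65 overlapped, all met-2 libraries were above both, and met-2 spread 12.4-fold. Without met-2 cco-1 RNAi replicate 1 its met-2 mean fell from 2.61 to 1.81 CPM, below the floor that chose it. The lin-65 mean was 11.05% of the met-2 mean for C01G10.17 and 5.62% for trf-2.

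**Figure D2:**
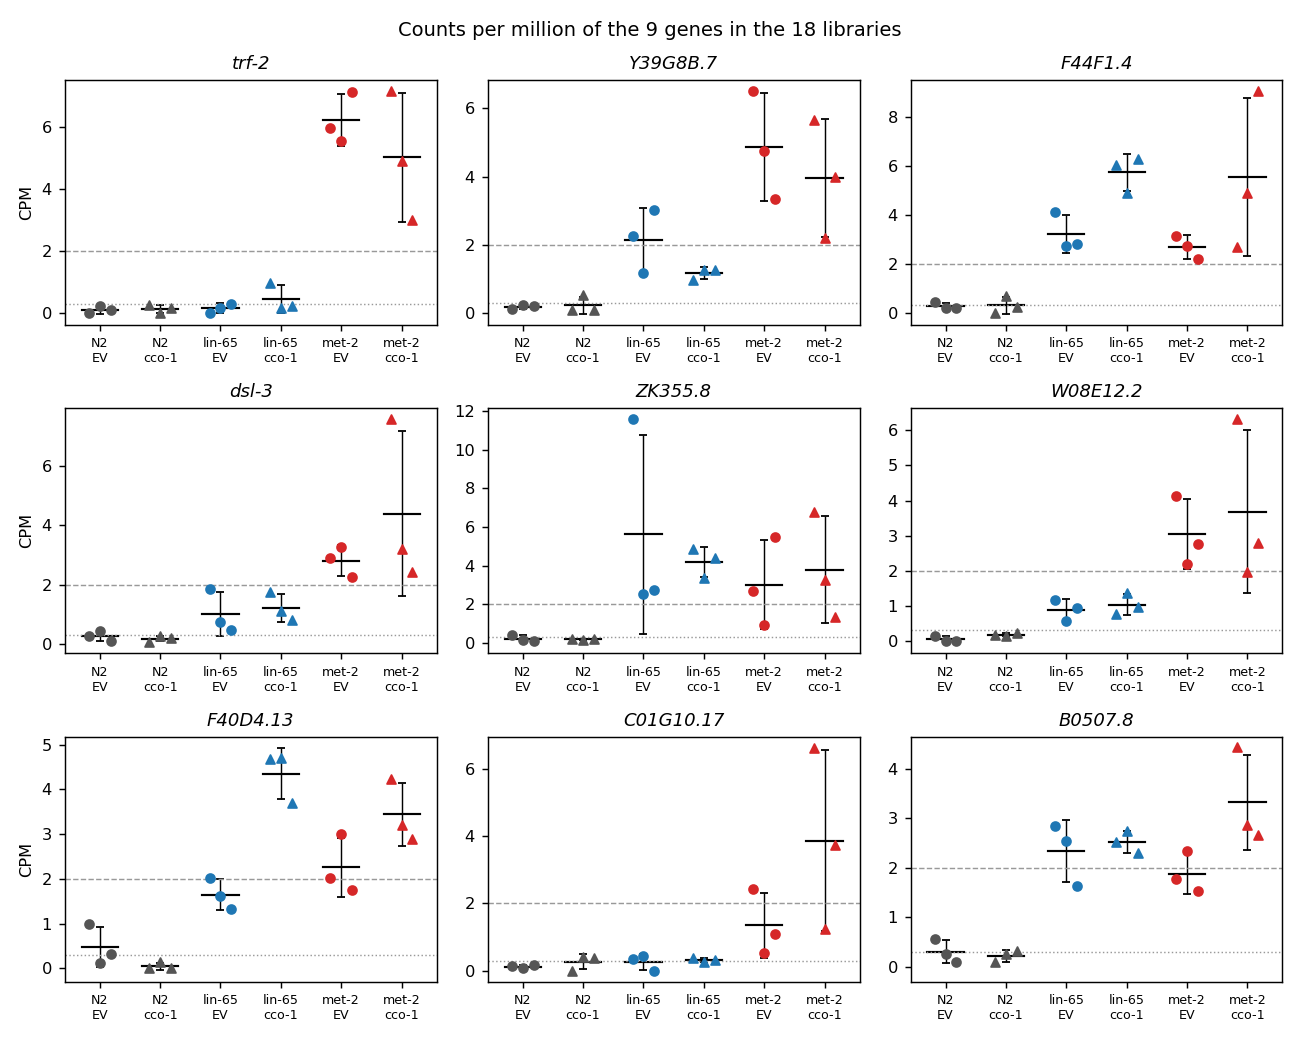
CPM (y axis, linear, own scale per gene) of the 9 genes in the 6 groups (x axis), with 1 point per library, a line at the mean and bars of 1 SD (n = 3). Circles are empty vector (EV) and triangles cco-1 RNAi; the dotted and dashed lines are at 0.3 and 2 CPM. Blue lin-65 points lie near the met-2 points for F44F1.4, ZK355.8, F40D4.13 and B0507.8 and near the N2 points for trf-2 and C01G10.17.

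All 6 met-2 libraries were above all 6 N2 libraries for 9 of 9 genes, against 6.1% of the 15110 genes tested and 32.4% of the 213 of them under 0.3 CPM in N2. This was the contrast of the choice, and nothing is read from it. For 7 of the 9 genes all 6 lin-65 libraries were above all 6 N2 libraries, which held for 2.7% of genes tested and for 23% of those 213. Here the N2 side was fixed to be low by the choice. All 6 met-2 libraries were above all 6 lin-65 libraries for 4 of 9 genes (trf-2, dsl-3, W08E12.2 and C01G10.17), against 4.63% of genes tested and 8.92% of those 213. The met-2 side of this comparison was fixed to be high by the choice. Without the 2 libraries that stood apart, the lin-65 mean ran from 7.13% of the met-2 mean for trf-2 to 131% for ZK355.8.

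The replicates of met-2 differed for the whole set. The highest of the 6 met-2 libraries was cco-1 RNAi replicate 1 for 7 of the 9 genes, all but Y39G8B.7 and F44F1.4. For dsl-3 the met-2 mean was 3.60 CPM with it and 2.81 CPM without it. Per kilobase of transcript the order of met-2 means changed: ZK355.8 was highest at 11.9 CPM per kb, followed by C01G10.17 at 8.40 and Y39G8B.7 at 7.70, and B0507.8 was lowest at 2.03. The gene trf-2 was at 5.32 CPM per kb.

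Expression in lin-65 against N2 was fitted with edgeR's quasi-likelihood test, adjusted by Benjamini-Hochberg over the 15110 genes tested, with calls at an adjusted p under 0.05. All 9 genes passed the filter on low counts through the groups where they are high. The N2 libraries in this comparison are the ones that chose the genes, so its p-values are too small for them. The values below are a description, and nothing is read from the calls. On empty vector 5 of the 9 genes were called higher, against 1.07% of genes tested and 9.86% of the 213 tested N2-silent genes. The median log2 fold change was 3.11 over the 9 genes, 0.06 over all genes tested and 1.59 over the N2-silent genes. By the lin-65 libraries alone, 6 of the 9 genes had a lin-65 mean of at least 1 CPM. This held for 43 (0.813%) of the 5286 gene models under 0.3 CPM in N2. Only 213 of these models passed the filter on low counts, while the 9 genes had to reach 2 CPM in met-2. The 2 shares are therefore not from like genes, and nothing is read from them.

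On empty vector the log2 fold change was 3.11 ± 0.51 (SE) for B0507.8, 3.63 ± 0.62 for F44F1.4 and 3.24 ± 0.58 for Y39G8B.7. On this diet each of the 3 lin-65 libraries exceeded each of the 3 N2 libraries for 7 of the 9 genes, all but trf-2 and C01G10.17. The N2 side was fixed to be low by the choice. The share of all genes for which this held is not given, and nothing is read from it. ZK355.8 had 4.97 ± 0.95, with the spread among lin-65 libraries given above. W08E12.2 held 1 count in N2 against 35 in lin-65. The ratio of its summed CPM was 36.2, with an exact 95% interval of 6.09 to 1471 that covers counting error only. The values were 2.00 ± 0.55 for F40D4.13, 1.85 ± 0.69 for dsl-3, 1.03 ± 1.13 for C01G10.17 and 0.17 ± 0.96 for trf-2.

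The 5 calls on empty vector (B0507.8, F44F1.4, Y39G8B.7, ZK355.8 and W08E12.2) also changed with the libraries fitted. Without N2 replicate 3, 2 of the 9 genes were called, and without N2 replicate 2, 3 were. With only the groups compared, 5 of the 9 genes were tested and 1 was called. There the adjusted p (edgeR) was 0.107 for B0507.8, 0.0787 for Y39G8B.7 and 0.0870 for ZK355.8.

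On cco-1 RNAi 4 of the 9 genes were called higher in lin-65 than in N2 (F40D4.13, F44F1.4, B0507.8 and ZK355.8), against 0.635% of genes tested and 10.8% of the N2-silent genes. F40D4.13 had 1 count in N2 and 137 in lin-65. The ratio of its summed CPM was 156, with an exact 95% interval of 27.5 to 6202 for counting error. The log2 fold change was 4.36 ± 0.62 for F44F1.4, 3.25 ± 0.52 for B0507.8 and 4.31 ± 0.96 for ZK355.8.

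The call of ZK355.8 on cco-1 RNAi was lost without any 1 of the 6 libraries compared. The other genes had 2.44 ± 0.64 for Y39G8B.7, 2.46 ± 0.76 for dsl-3, 2.35 ± 0.69 for W08E12.2, 1.05 ± 0.90 for trf-2 and 0.13 ± 1.04 for C01G10.17. Leaving out the 2 libraries that stood apart gave 7 called genes, adding Y39G8B.7, dsl-3 and W08E12.2. Neither of those 2 libraries is in the groups compared, and over all genes the calls went from 168 to 546 at the same time.

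**Figure D3:**
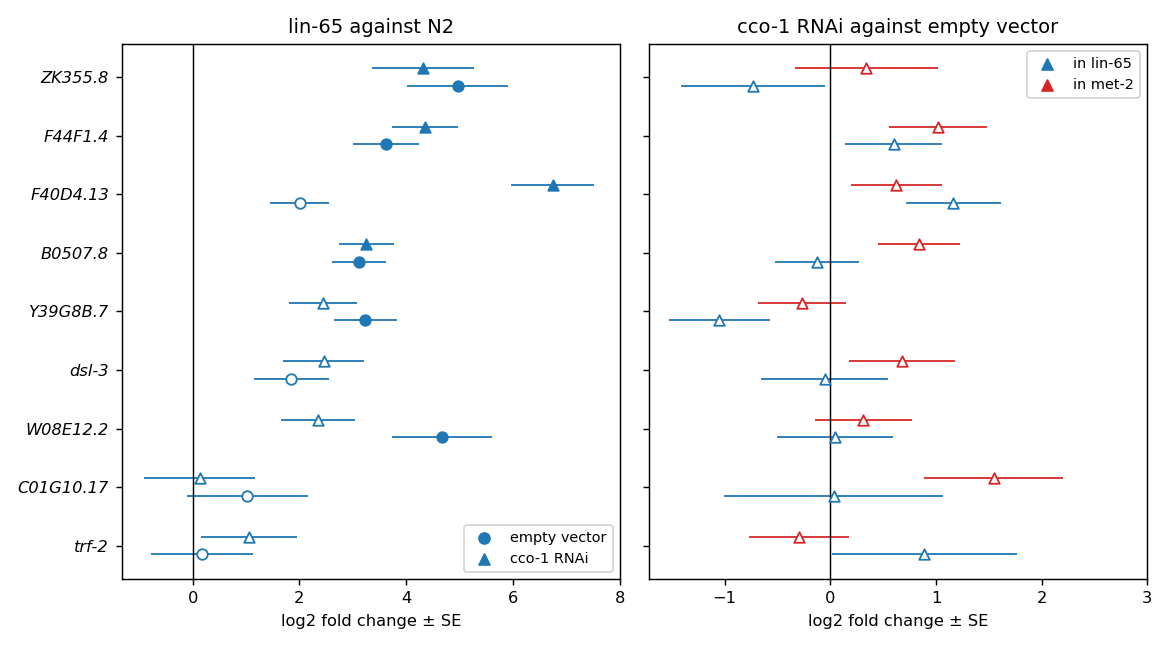
Log2 fold change ± SE from edgeR (x axis) for each gene (y axis). The left panel shows lin-65 against N2 on empty vector (circles) and cco-1 RNAi (triangles), and the right panel cco-1 RNAi against empty vector in lin-65 (blue) and met-2 (red); filled symbols have an adjusted p under 0.05, and none is filled on the right. The N2 libraries of the left panel chose the genes, so its filled symbols are a description.

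The met-2 libraries chose the genes by their mean over both diets, and the values of the response to cco-1 RNAi in met-2 come from the same libraries. They are given as a description. In met-2 0 of the 9 genes were called (edgeR), against 1.11% of genes tested, 3 had an unadjusted p under 0.05, and DESeq2 also called 0. These 3 were C01G10.17 with a log2 fold change of 1.55 ± 0.66, F44F1.4 with 1.02 ± 0.46 and B0507.8 with 0.84 ± 0.39. For B0507.8 the 3 RNAi libraries were above the 3 empty vector libraries, while those of C01G10.17 and F44F1.4 overlapped. The share of all genes with such a separation is not given, and nothing is read from it. Without cco-1 RNAi replicate 1, the highest met-2 library for 7 of the 9 genes, C01G10.17 had 0.79 ± 0.69 and B0507.8 had 0.51 ± 0.42. The other 6 genes ran from -0.30 for trf-2 to 0.68 for dsl-3.

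The lin-65 libraries had no part in the choice. There 0 of the 9 genes were called (edgeR), against 0.715% of genes tested, and DESeq2 called 0. The genes trf-2 and C01G10.17 passed the filter on low counts through met-2. At 0 to 5 counts of trf-2 and 0 to 7 of C01G10.17 per lin-65 library, they left little room for a call. An unadjusted p under 0.05 was found for F40D4.13 at 1.16 ± 0.45 (adjusted p = 0.298, edgeR) and Y39G8B.7 at -1.05 ± 0.48 (0.380). The 3 RNAi libraries of F40D4.13 were above those on empty vector, and so were those of F44F1.4, at 4.87 CPM or more against 4.11 CPM or less (log2 fold change 0.60, not called). Those of Y39G8B.7 overlapped. Here too no share over all genes is given, and nothing is read from the separation of the diets. The difference of the response between met-2 and lin-65 is a description, since it holds the met-2 libraries that chose the genes. It was called for 0 of the 9 genes (0 with an unadjusted p under 0.05) and for 0% of genes tested. The values ran from -1.18 ± 0.995 for trf-2 to 1.51 ± 1.23 for C01G10.17, the genes with the fewest lin-65 reads. DESeq2, fitted to all gene models without edgeR's filter on low counts, called 4 genes for this difference.

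The response in N2 was added after the values were seen, and these N2 libraries chose the genes, so it is a description from which nothing is read. There 0 of 9 genes were called by edgeR, against 0.841% of genes tested, and F40D4.13 alone had an unadjusted p under 0.05. In N2 it had 15 counts with the empty vector but 1 with cco-1 RNAi, a ratio of summed CPM of 0.0762 with an exact 95% interval of 0.00181 to 0.495 for counting error.

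The genes are spread over the genome. They lie on chromosomes I, II, IV and V, with 2, 2, 2 and 3 genes, and the nearest pair is dsl-3 and W08E12.2 at 1693 kb. Outside the middle part of their chromosomes, cut into 3 equal parts, lay 7 of the 9 (77.8%), against 62.6% of all placed gene models and 75.4% of those under 0.3 CPM in N2. All 9 are annotated as protein coding. The median protein length was 262 residues, against 332 over all gene models and 301 over the N2-silent ones.

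Genes next to several members were higher in met-2 as well. Within 10 kb of the 9 genes lie 60 other gene models, of which 37 were tested. On empty vector 10 of the 37 (27.03%) were called higher in met-2 than in N2 and 3 (8.11%) lower, against 15.3% and 15.3% of genes tested. On cco-1 RNAi 11 (29.7%) were higher and 1 (2.70%) lower, against 11.2% and 9.59%. The genes called lower on empty vector were hcp-6 near trf-2 (log2 fold change -0.84), Y110A2AR.1 near ZK355.8 (-1.15) and F40D4.17 near F40D4.13 (-1.51). On cco-1 RNAi it was zip-11 near W08E12.2 (-1.10). The neighbours were looked at after the values were seen, and the contrast is the one that chose the 9 genes. How reads were counted by strand or shared between close genes is not stated in the labels, and its part in these values was not tested.

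Of the neighbours of C01G10.17, 4 were called on both diets. C01G10.15, 3.45 kb away, ran from 3.56 to 6.94 CPM in N2 and from 20.98 to 59.2 CPM in met-2, with a log2 fold change of 2.65 on empty vector (adjusted p = 7.1e-05, edgeR). C01G10.6, 2.33 kb away, ran from 1.55 to 5.53 CPM in N2 and from 16.9 to 74.4 CPM in met-2 (log2 fold change 2.89). Without met-2 cco-1 RNAi replicate 1 the highest met-2 value was 41.1 CPM for C01G10.15 and 36.1 CPM for C01G10.6. For both genes, and for C01G10.5 and C01G10.4, no met-2 library overlapped N2. C01G10.4 was not called on empty vector without N2 replicate 2 (adjusted p = 0.0673, edgeR), N2 replicate 3 (0.0523) or met-2 replicate 3 (0.0573).

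Near W08E12.2, idpp-12 rose from 2.07 ± 1.18 CPM in N2 to 12.9 ± 4.87 CPM in met-2 (SD, n = 6), and W08E12.6 from 0.538 ± 0.30 to 2.88 ± 1.19 CPM. Near Y39G8B.7, F01D5.5 rose from 29.9 ± 6.10 to 77.7 ± 13.4 CPM and F01D5.1 from 5.23 ± 1.74 to 24.1 ± 11.7 CPM. Without met-2 cco-1 RNAi replicate 1 the met-2 mean of F01D5.1 was 19.8 CPM. F01D5.1 was not called on empty vector without met-2 replicate 3 (adjusted p = 0.0599, edgeR). The gene ddn-1, 0.106 kb from B0507.8, rose from 0.720 ± 0.329 to 2.98 ± 1.09 CPM. All 5 of these were called on both diets. F01D5.3 near Y39G8B.7 (log2 fold change 1.49) and ZK355.3 near ZK355.8 were called on cco-1 RNAi alone. ZK355.3 was at 0 CPM in every N2 library and had a met-2 mean of 0.435 CPM. Without met-2 cco-1 RNAi replicate 1 that mean was 0.21 CPM. Near trf-2, unc-63, a subunit of an acetylcholine receptor, was called on empty vector alone, and not without N2 replicate 1 (0.0638), N2 replicate 2 (0.0838) or met-2 replicate 1 (0.0544).

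In lin-65 against N2 0 of the 37 tested neighbours were called on either diet (edgeR), where 1.07% of genes tested were called higher on empty vector, and 0.635% were with cco-1 RNAi. These comparisons share the N2 libraries with those of met-2. Several neighbours had a higher mean in lin-65 than in N2 without a call. The lin-65 mean was 14.1 CPM for F01D5.1 against 5.23 CPM in N2, and 2.27 CPM for C01G10.4 against 0.896 CPM. For ddn-1 it was 2.28 CPM against 0.720 CPM. Without lin-65 empty vector replicate 1 these lin-65 means were 11.1 CPM for F01D5.1, 1.35 CPM for C01G10.4 and 2.40 CPM for ddn-1. It was 4.90 CPM for C01G10.15, 5.62 CPM for C01G10.6 and 2.32 CPM for idpp-12, and whether the mutants differ at these genes was not tested.

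**Figure D4:**
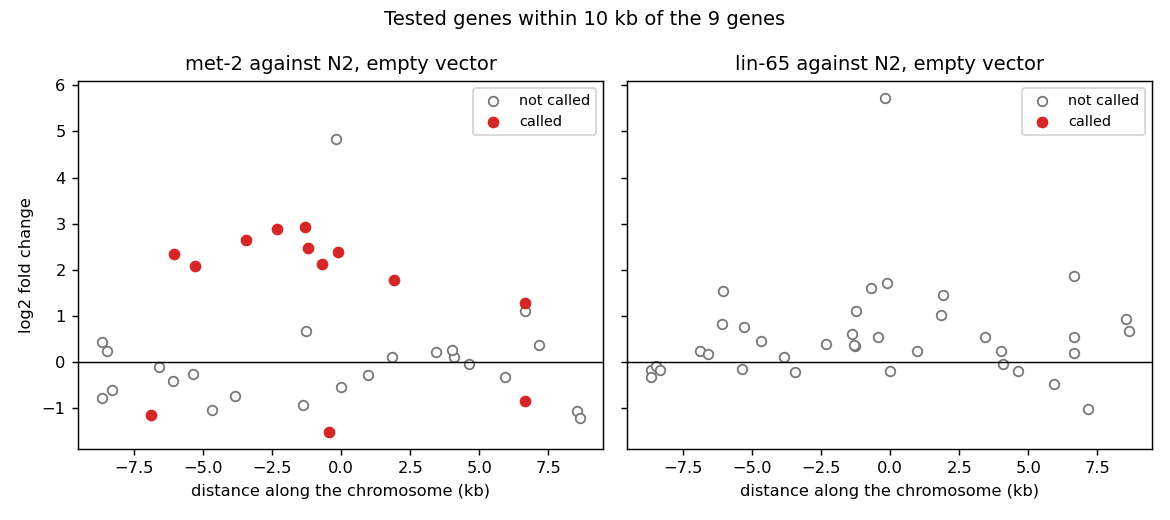
Log2 fold change from edgeR on empty vector (y axis) of the 37 tested genes within 10 kb of the 9 genes, by distance along the chromosome between nearest ends (x axis, kb; negative values lie at lower coordinates). The left panel shows met-2 against N2, with 10 called genes above 0 and 3 below, and the right panel lin-65 against N2, with none called.

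Genes of several tissue and germline lists were called in met-2 against N2. None of the 9 genes is in any of the 12 marker lists. Against N2 on empty vector, 18 of 33 tested sperm genes, 13 of 24 oocyte and eggshell genes, 17 of 29 germ granule and meiosis genes and 5 of 6 vitellogenins were lower in met-2, and 1 oocyte gene was higher. On cco-1 RNAi 8 of the sperm genes were lower and 1 higher, and 19 oocyte and eggshell genes, 16 germ granule and meiosis genes and 6 vitellogenins were lower. Of 21 neuronal genes, 11 were higher on empty vector, and 6 were higher with cco-1 RNAi. Of 21 hypodermis and molting genes, 9 were higher and 1 lower on empty vector, and 0 were called on cco-1 RNAi. Of 16 intestinal genes 4 and 5 were higher on these diets, and of 19 body wall muscle genes 5 and 1 were higher and 1 was lower on each. Of 7 male somatic genes 3 were higher on empty vector and 1 lower with cco-1 RNAi, and of 6 embryonic lineage genes 0 were called on empty vector, with 1 higher and 2 lower on RNAi. Of 21 heterochromatin genes, a list that holds met-2 itself, 4 and then 5 were lower, and of 23 nuclear and germline RNAi genes 7 and then 5 were lower. Over all genes tested, 15.3% were called higher and 15.3% lower on empty vector, and 11.2% higher and 9.59% lower on cco-1 RNAi. No list was tested as a set against these shares. Of the matched genes, 6 of 30 embryonic lineage genes and 7 of 15 male somatic genes passed the filter on low counts. The summed level of the germ granule and meiosis list was 1548 to 1813 CPM in N2, 1805 to 2251 CPM in lin-65 and 985 to 1233 CPM in met-2. In lin-65 against N2 the vitellogenins were the one list with calls, 5 of 6 lower on empty vector, and 6 of 6 with cco-1 RNAi. The part of tissue content in the levels of the 9 genes was not tested.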

How the data were processed

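Per the labels' protocols, oligo-dT beads selected polyA RNA out of the lysate before ScriptSeq v2 library preparation. The submitters' processing notes name Bowtie 0.12.7 and DESeq without a role. The authors' genome build, gene annotation, read counter and use of strand are not stated in these notes or labels. Each deposited file holds unnormalized whole-number read counts for the gene models of 1 library. Of 20505 models, 20074 matched WBcel235 (Ensembl annotation) by sequence name, and the other 431 hold 0.148% of counts. Coordinates and lengths are from that annotation.

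CPM used plain library totals. Tests were edgeR 4.0.16 in R 4.3.3 (TMM, filterByExpr by group, robust quasi-likelihood, group means over 18 libraries, two-sided, Benjamini-Hochberg over 15110 genes), and the code was tested on simulated data. SEs were derived from the fold change and its F value. DESeq2 1.42.0, plain totals, no filter, each library left out, 16 libraries, a replicate block and the compared groups alone were alternatives. Of 10 comparisons fitted, the 3 involving the N2 response and the 2 of met-2 against N2, used for neighbours, were chosen after seeing the data. Same-numbered replicates correlated above 0.1 in every pair for cco-1 RNAi in N2 (0.126, 0.357 and 0.285) and not in the other 4 comparisons checked, and nothing in the labels pairs them. The most alike pair of replicates still differed by more than counting noise (chi-square over degrees of freedom of 10.4).

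The genes named were all 9, those next to the thresholds, the strain genes and the RNAi target. Neighbours called were named after their values were seen. The genes and lists were chosen with earlier results of these data known.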

Additional observations from a re-analysis of the deposited data

How the results depend on the processing

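The rule gave 12 genes with TMM library sizes, 2 with an N2 ceiling of 0.15 CPM, 3 with a met-2 floor of 4 CPM and 7 to 12 with 1 library left out, and 5 of the 9 genes were kept whichever of the 12 N2 and met-2 libraries was left out. For lin-65 against N2 on empty vector, 1 gene was called with only the groups compared, where 5 of the 9 were tested, and 2 to 6 with 1 library left out. On cco-1 RNAi 7 were called with 16 libraries and 3 to 4 with 1 left out. In N2, 1 gene was called on cco-1 RNAi with 16 libraries and 0 to 1 with 1 left out, while over all genes the calls with 16 libraries went from 127 to 2828. Neighbours higher in met-2 numbered 8 to 11 on empty vector and 10 to 12 on cco-1 RNAi with 1 library left out. The replicate block left the members called at 5 and 4 for lin-65 against N2 and at 0 for the cco-1 RNAi response in each strain, and over all genes it moved the calls in N2 from 127 to 200.

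Signs changed only for values that were not called. For cco-1 RNAi in met-2, 16 libraries gave -0.030 for dsl-3, -0.39 for ZK355.8 and -0.43 for W08E12.2. In lin-65 dsl-3 had 0.20 with plain totals, 0.76 with 16 libraries and 0.11 with the replicate block, ZK355.8 had 0.54 with 16 libraries, and B0507.8 had 0.10 with plain totals and 0.14 with 16 libraries. For the difference between met-2 and lin-65, 16 libraries gave -0.79 for dsl-3, -0.93 for ZK355.8 and -0.84 for W08E12.2. With 1 library left out, the ranges that changed sign were as follows. In met-2 Y39G8B.7 ran from -0.71 to 0.038, dsl-3 from -0.033 to 0.96, ZK355.8 from -0.40 to 1.27 and W08E12.2 from -0.42 to 0.64. In lin-65 dsl-3 ran from -0.42 to 0.78, ZK355.8 from -1.14 to 0.54, W08E12.2 from -0.28 to 0.41, C01G10.17 from -0.53 to 0.59 and B0507.8 from -0.35 to 0.15. For the difference between them F44F1.4 ran from -0.11 to 0.71, dsl-3 from -0.10 to 1.10, ZK355.8 from -0.20 to 1.99 and W08E12.2 from -0.47 to 0.60. For lin-65 against N2, trf-2 ran from -0.47 to 1.03 on empty vector and C01G10.17 from -0.41 to 0.76 on cco-1 RNAi. The cause was not tested.

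In the 3 added comparisons the other 8 genes changed sign in 37 of 549 alternatives, with 0 past the threshold, and their values are not reported. At 0 to 7 counts per N2 library, differences below the level of a few reads were not detectable.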
